A study of Mus musculus with 8 samples.

Results

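The genes of the mitochondrial respiratory chain and ATP synthase were taken from the table of H3K4me3 peaks of KL and KLG4m/m lung tumor cells by their symbols: every listed peak whose gene name began with Nduf followed by a, b, c, s or v, with Uqcr, with Cox4 to Cox8 or with Atp5, or was Sdha, Sdhb, Sdhc or Sdhd. This rule found 99 of the 35486 listed peaks and 79 of the 20871 listed genes, and it used no measured level or fold change. Complex I (NADH dehydrogenase) had 50 peaks of 37 genes, complex II (succinate dehydrogenase) 4 peaks of 3 genes, complex III (the cytochrome bc1 complex) 6 peaks of 6 genes, complex IV (cytochrome c oxidase) 18 peaks of 15 genes and complex V (ATP synthase) 21 peaks of 18 genes. The symbols also bring in genes that encode no subunit, namely the complex I assembly factors Ndufaf1, Ndufaf6 and Ndufaf8, the ATP synthase inhibitor Atp5if1, the pseudogenes Atp5pb-ps, Cox7c-ps1 and Uqcrh-ps2, and related genes such as Cox7a2l, a supercomplex factor.

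KL mice carried a Cre-activated oncogene allele together with Lkb1fl/fl, and KLG4m/m mice carried Gpx4m/m in addition, so that the active oncogene and the loss of LKB1 in Cre-exposed cells were shared by both groups. Mice of 8 to 10 weeks of age received Ad-Cre intranasally, both groups were then given tamoxifen, and CD45-CD31-EpCAM+ tumor cells were sorted from the lungs 10 weeks after Ad-Cre. In the Gpx4m allele a CAG-driven Dre recombinase, which becomes available after Cre has removed a stop cassette, deletes Gpx4 sequence once tamoxifen is given, so that GPX4 is lost in Cre-exposed cells only. Both groups had 2 libraries. The paper's figure legend gives 2 mice per group for these data, which would be 1 mouse per library. The labels speak of 3 mice in total, and the 2 statements were not reconciled. The p-values measure the spread between these libraries. The 2 KL libraries are called KL 1 and KL 2 here and the 2 KLG4m/m libraries KLG4m/m 3 and KLG4m/m 4, after their labels.

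Electrons from NADH enter the chain at complex I and electrons from succinate at complex II, ubiquinone carries them to complex III, and cytochrome c carries them to complex IV, which passes them to oxygen. Complexes I, III and IV pump protons, and complex V uses the proton gradient to make ATP. Most subunits are encoded in the nucleus by housekeeping genes with CpG-rich promoters, on which NRF1, GABPA (an ETS factor) and YY1 are known regulators. H3K4me3 marks the start sites of active and poised genes, and its level is not a measure of transcript or protein.

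Promoter sequences are shown for the 3 genes of the c-ring of ATP synthase, which encode the same mature protein. Of these, Atp5mc3 passed the test below, and the difference between the 3 genes was not tested. Sequences are also shown for Ndufv2, Ndufab1 and Uqcrc1, whose peaks passed as well. They are RefSeq sequences of GRCm38.p6, 250 bases before to 50 bases after the annotated start, written 5′ to 3′ on the gene's strand; the peak table uses other coordinates, so the place of each peak on the sequence was not compared. Capitals mark matches to the NRF1 core GCATGCGC, the ETS core CCGGAAG or the YY1 core AAGATGGCG on either strand. The other members that passed, Ndufaf6, Cox4i1 and Ndufs1, matched no RefSeq promoter sequence and are not shown.
Atp5mc1, chr11:96075582-96075881, minus strand: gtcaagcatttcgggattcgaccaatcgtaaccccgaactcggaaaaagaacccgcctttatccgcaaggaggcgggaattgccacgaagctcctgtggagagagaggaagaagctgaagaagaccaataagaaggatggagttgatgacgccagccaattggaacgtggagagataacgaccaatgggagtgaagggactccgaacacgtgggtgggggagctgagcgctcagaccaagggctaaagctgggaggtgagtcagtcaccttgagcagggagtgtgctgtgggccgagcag
Atp5mc2, chr15:102670998-102671297, minus strand: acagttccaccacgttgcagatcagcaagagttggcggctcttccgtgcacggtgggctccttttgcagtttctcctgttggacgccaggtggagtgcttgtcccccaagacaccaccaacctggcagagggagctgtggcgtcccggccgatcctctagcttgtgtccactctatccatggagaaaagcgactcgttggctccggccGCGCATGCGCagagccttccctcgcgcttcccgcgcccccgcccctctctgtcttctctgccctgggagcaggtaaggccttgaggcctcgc
Atp5mc3, chr2:73911277-73911576, minus strand: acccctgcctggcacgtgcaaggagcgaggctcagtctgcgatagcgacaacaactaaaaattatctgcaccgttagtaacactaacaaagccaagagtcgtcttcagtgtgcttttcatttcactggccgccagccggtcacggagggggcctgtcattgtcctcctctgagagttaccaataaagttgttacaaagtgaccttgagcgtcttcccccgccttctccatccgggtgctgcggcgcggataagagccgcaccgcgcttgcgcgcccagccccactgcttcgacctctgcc
Ndufv2, chr17:66101510-66101809, minus strand: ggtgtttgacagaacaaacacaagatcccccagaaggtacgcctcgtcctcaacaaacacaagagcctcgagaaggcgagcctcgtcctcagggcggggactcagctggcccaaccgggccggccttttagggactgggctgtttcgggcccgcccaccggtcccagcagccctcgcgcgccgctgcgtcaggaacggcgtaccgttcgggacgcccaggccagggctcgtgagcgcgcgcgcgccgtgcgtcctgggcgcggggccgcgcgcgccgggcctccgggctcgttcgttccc
Ndufab1, chr7:122101799-122102098, minus strand: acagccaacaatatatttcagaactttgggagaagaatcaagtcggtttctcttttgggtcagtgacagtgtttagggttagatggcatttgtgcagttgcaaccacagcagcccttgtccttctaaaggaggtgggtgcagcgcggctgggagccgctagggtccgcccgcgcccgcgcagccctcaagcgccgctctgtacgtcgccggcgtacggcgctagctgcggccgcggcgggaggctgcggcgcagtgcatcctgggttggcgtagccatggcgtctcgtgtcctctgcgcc
Uqcrc1, chr9:108936398-108936697, plus strand: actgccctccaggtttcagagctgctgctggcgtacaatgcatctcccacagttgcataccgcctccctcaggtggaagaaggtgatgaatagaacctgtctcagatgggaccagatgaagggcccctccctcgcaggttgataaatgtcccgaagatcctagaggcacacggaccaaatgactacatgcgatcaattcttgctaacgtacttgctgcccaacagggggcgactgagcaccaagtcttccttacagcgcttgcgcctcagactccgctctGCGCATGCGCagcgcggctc
Atp5mc2 and Uqcrc1 hold the NRF1 core on both strands in 1 overlapping palindrome, and the other 4 sequences hold none of the 3 cores. The GC content was 55.3% for Atp5mc1, 63.0% for Atp5mc2, 57.0% for Atp5mc3, 70.7% for Ndufv2, 61.7% for Ndufab1 and 56.3% for Uqcrc1.

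Of the 79 genes, 73 had an H3K4me3 peak at their start site, and most of these peaks were strong. Of the 99 peaks, 73 lay within 1 kb of a start site, 1 for each of 73 genes, and these promoter peaks held 20.9 to 135 CPM (reads per 1000000 reads in peaks, TMM-scaled, mean of the 4 libraries) with a median of 83.9 CPM. The median of all 17073 promoter peaks was 41.2 CPM. Every listed peak is 400 bp wide, so levels compare windows of equal length. The highest levels were those of Atp5pf, a peripheral stalk subunit of ATP synthase (135 CPM), Uqcrc2, a core subunit of complex III (128 CPM), and Ndufv3, an accessory subunit of complex I (127 CPM). The lowest were those of Cox6b2, the testis form of a complex IV subunit (20.9 CPM), Ndufa4l2, a hypoxia-responsive relative of Ndufa4 (21.3 CPM), and Cox7b, a complex IV subunit (26.0 CPM). By complex the median promoter level was 84.1 CPM in complex I, 85.4 CPM in complex II, 101 CPM in complex III, 60.3 CPM in complex IV and 90.5 CPM in complex V. In complex I Ndufb6 and Ndufa6, both accessory subunits, followed Ndufv3 at 109 CPM each, and in complex V Atp5pb and Atp5f1b followed Atp5pf at 118 and 117 CPM. The highest complex IV levels were 87.8 CPM at Cox7a2l, 86.3 CPM at Cox8a and 84.8 CPM at Cox6a1. The other 26 member peaks were weak, at 3.06 to 35.4 CPM with a median of 6.99 CPM, and 17 of them were under 10 CPM.

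The 4 libraries held 3244495 to 3463731 reads in peaks, and the 2 libraries of each genotype differed by more than sampling noise (chi-square per degree of freedom 1.13 and 1.23), so each was counted as 1 sample. The summed levels of the epithelial and leukocyte markers differed between the genotypes, and those of the endothelial and fibroblast markers overlapped. The summed gene levels of 8 of 9 epithelial markers with a peak were 363 to 367 CPM in KL and 296 to 308 CPM in KLG4m/m, with Epcam itself, the gate's marker, at a log2 fold change, KLG4m/m over KL, of -0.82 (edgeR, adjusted p = 1.56e-06). Epcam, Cdh1 and Sftpb were lower, and the other 5 did not pass. The 6 of 8 leukocyte markers with a peak were 192 to 200 CPM in KL and 242 to 257 CPM in KLG4m/m, with Itgam among those that were higher. The 5 endothelial markers were 138 to 163 CPM and 131 to 147 CPM, of which 1 (Tek) was lower and 4 did not pass, and the 2 of 5 fibroblast markers with a peak 62.0 to 68.8 CPM and 63.1 to 65.7 CPM. Of the genes behind the gate, Ptprc, which encodes CD45, was at 0.22 (edgeR, adjusted p = 0.163). Pecam1, which encodes CD31, was at 0.19 (adjusted p = 0.222), and neither passed. The part of the cell mixture in the members' differences was not tested, and fewer cells with the mark and less of the mark per cell cannot be told apart in such bulk libraries. The peak at the start of Gpx4 held 242 and 236 reads in KL and 304 and 301 reads in KLG4m/m (0.40 on the log2 scale, adjusted p = 0.00854); it lies outside the deleted exons and so does not check the deletion. Of the 2 peaks at a start of Stk11, which encodes LKB1, 1 was at 0.19 (adjusted p = 0.202) and 1 was higher (0.62, adjusted p = 0.00140).

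The question for this mark was whether H3K4me3 at these genes differed between KLG4m/m and KL tumor cells. At the promoters of 5 members H3K4me3 was lower in KLG4m/m cells: Ndufaf6, Ndufv2 and Ndufab1 of complex I, Cox4i1 of complex IV and Atp5mc3 of complex V. At 2 it was higher: Ndufs1 of complex I and Uqcrc1 of complex III. The other 92 of 99 member peaks did not pass an adjusted p of 0.05 (edgeR quasi-likelihood test, Benjamini-Hochberg over all 35486 peaks). Of the 73 promoter peaks, 6.85% were lower and 2.74% higher, against 8.43% lower and 2.89% higher of all promoter peaks tested, so the shares are near the background. Over all listed peaks the background was 5.52% lower and 3.1% higher. With upper-quartile scaling the members' split was 5 lower and 8 higher of 99, against a background of 4.84% lower and 5.98% higher over all peaks. DESeq2 called 1 member lower (Ndufaf6) and 0 higher, against 0.688% and 0.093% of all peaks. The edgeR test gave 7 lower and 14 higher members at an unadjusted p under 0.05, against 13.5% and 11.2% of all peaks.

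**Figure D1:**
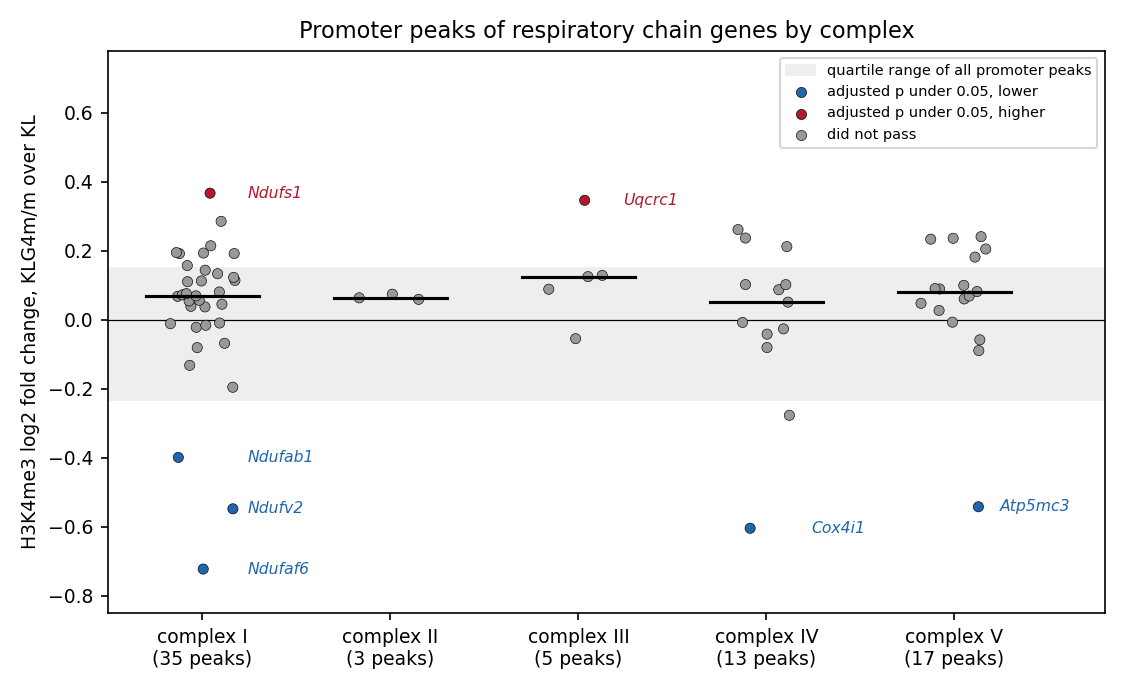
H3K4me3 log2 fold change (KLG4m/m over KL) of the 73 member promoter peaks, 1 point each, grouped by complex, with a black line at each complex's median and a grey band over the quartile range of all promoter peaks. The 5 blue points (lower) lie between -0.72 and -0.40, the 2 red points (higher) at 0.35 and 0.37, and most grey points lie a little above 0.

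The largest difference among the promoter peaks was at Ndufaf6, an assembly factor of complex I. Its promoter peak (chr4:11075891-11076291 in the table's coordinates) held 264 and 296 reads in KL 1 and KL 2, and 150 and 176 reads in KLG4m/m 3 and KLG4m/m 4. Both KLG4m/m libraries were below both KL libraries, at 49.0 ± 7.77 CPM compared to 80.6 ± 6.59 CPM (SD, n = 2 each). The log2 fold change was -0.72 ± 0.11 (SE; adjusted p = 1.90e-04). The other 2 peaks of the gene had 18 to 34 reads: the one at -8296 bp from its start was at 0.027 (adjusted p = 0.969) and the one at -12162 bp at 0.29 (adjusted p = 0.559).

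Of the 7 nuclear-encoded core subunits of complex I, which carry the redox centres, 6 had a promoter peak. At Ndufv2, a subunit with an iron-sulfur cluster in the NADH-binding arm, the peak (chr17:66408462-66408862) held 322 and 360 reads in KL and 199 and 249 reads in KLG4m/m. The groups did not overlap, and the log2 fold change was -0.55 ± 0.11 (adjusted p = 0.00220). At Ndufs1, the largest subunit and a carrier of further iron-sulfur clusters in the same arm, the difference had the other sign: the peak (chr1:63215537-63215937) held 250 and 246 reads in KL and 319 and 296 reads in KLG4m/m. The level was 92.1 ± 0.611 CPM compared to 71.4 ± 0.751 CPM (SD, n = 2 each), a log2 fold change of 0.37 ± 0.092 (adjusted p = 0.0129). Ndufv1, the NADH-oxidizing subunit that pairs with Ndufv2, was at 0.11 on the same scale (adjusted p = 0.469). For Ndufs7 and Ndufs8, of the arm that hands electrons to ubiquinone, the log2 fold changes were -0.011 and 0.20, and neither passed.

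Among the accessory subunits of complex I, which surround the core, 1 of 24 promoter peaks passed. It was lower (4.17%, against 8.43% lower and 2.89% higher of all promoter peaks). The peak was that of Ndufab1, the mitochondrial acyl carrier protein, which also serves mitochondrial fatty acid synthesis. Its peak (chr7:121700846-121701246) held 255 and 281 reads in KL and 224 and 167 reads in KLG4m/m. Both KLG4m/m libraries were lower, but they lay further apart (58.3 ± 9.37 CPM) than the KL libraries (77.1 ± 5.36 CPM; SD, n = 2 each), and the log2 fold change was -0.40 ± 0.11 (adjusted p = 0.0234). For the other 23 the log2 fold change ran from -0.080 at Ndufb4 to 0.29 at Ndufs4 (adjusted p = 0.0949 for Ndufs4). Of the 24, 19 were above 0 (79.2%, against 50.4% of all promoter peaks), and this difference was not tested. Ndufaf1 and Ndufaf8, the other assembly factors caught by the rule with a promoter peak, were at -0.20 and 0.21 (adjusted p = 0.265 and 0.128).

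In complex II, which is also an enzyme of the tricarboxylic acid cycle, the promoter peaks of Sdhb, Sdhc and Sdhd did not pass. Their log2 fold changes were 0.064, 0.074 and 0.059, with SEs of 0.10, 0.091 and 0.082, so all 3 were smaller than their error. Sdhd held 394 and 397 reads in KL and 396 and 396 reads in KLG4m/m.

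In complex III, Uqcrc1, a core subunit, was the member that passed. Its peak (chr9:108765663-108766063) held 244 and 247 reads in KL and 303 and 297 reads in KLG4m/m, so both KLG4m/m libraries were higher. The level was 89.9 ± 2.89 CPM compared to 70.7 ± 0.673 CPM (SD, n = 2 each), a log2 fold change of 0.35 ± 0.093 (adjusted p = 0.0201). Uqcrc2, the other core subunit, was at 0.13 ± 0.082 (adjusted p = 0.343), and Uqcrfs1, the Rieske iron-sulfur protein, at 0.13 ± 0.12 (adjusted p = 0.544). The small subunits Uqcr10 and Uqcr11 were at 0.089 and -0.054 and did not pass.

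In complex IV, Cox4i1, the ubiquitous form of the largest nuclear-encoded subunit, was lower in KLG4m/m cells. Its peak (chr8:121394790-121395190) held 242 and 264 reads in KL and 174 and 146 reads in KLG4m/m. The groups did not overlap, at 47.8 ± 3.72 CPM in KLG4m/m and 72.8 ± 4.54 CPM in KL (SD, n = 2 each), and the log2 fold change was -0.60 ± 0.11 (adjusted p = 8.82e-04). Cox5a, a subunit on the matrix side, was at -0.28 ± 0.12 (adjusted p = 0.135), with 214 and 198 reads in KL and 181 and 146 reads in KLG4m/m. Cox5b and Cox8a had values of the other sign, 0.24 (adjusted p = 0.159) and 0.26 (adjusted p = 0.0702). The remaining 9 complex IV promoter peaks ran from -0.080 at Cox7a1 to 0.21 at Cox7b, and none passed.

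In complex V, Atp5mc3, 1 of the 3 genes of the proton-carrying c subunit, was lower in KLG4m/m cells. Its peak (chr2:73741524-73741924) held 229 and 245 reads in KL and 171 and 142 reads in KLG4m/m, with no overlap. The level was 46.8 ± 3.98 CPM compared to 68.2 ± 3.32 CPM (SD, n = 2 each), a log2 fold change of -0.54 ± 0.11 (adjusted p = 0.00290). The other c subunit genes did not pass: Atp5mc1 held 282 and 242 reads in KL and 284 and 308 reads in KLG4m/m, and its log2 fold change was 0.23 (adjusted p = 0.148). Atp5mc2 held 313 and 340 reads in KL and 299 and 291 reads in KLG4m/m, and its log2 fold change was -0.089 (adjusted p = 0.580). In KL cells Atp5mc3 had the lowest mean level of the 3 promoters, though in KL 2 Atp5mc1 lay below it (242 against 245 reads). The difference between the genes' fold changes was not tested. Atp5f1b, the catalytic beta subunit, and Atp5pb, of the peripheral stalk, were each at 0.24 and missed the threshold (adjusted p = 0.0665 and 0.0701). Atp5if1, the inhibitor of ATP hydrolysis, was at 0.10 (adjusted p = 0.603).

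**Figure D2:**
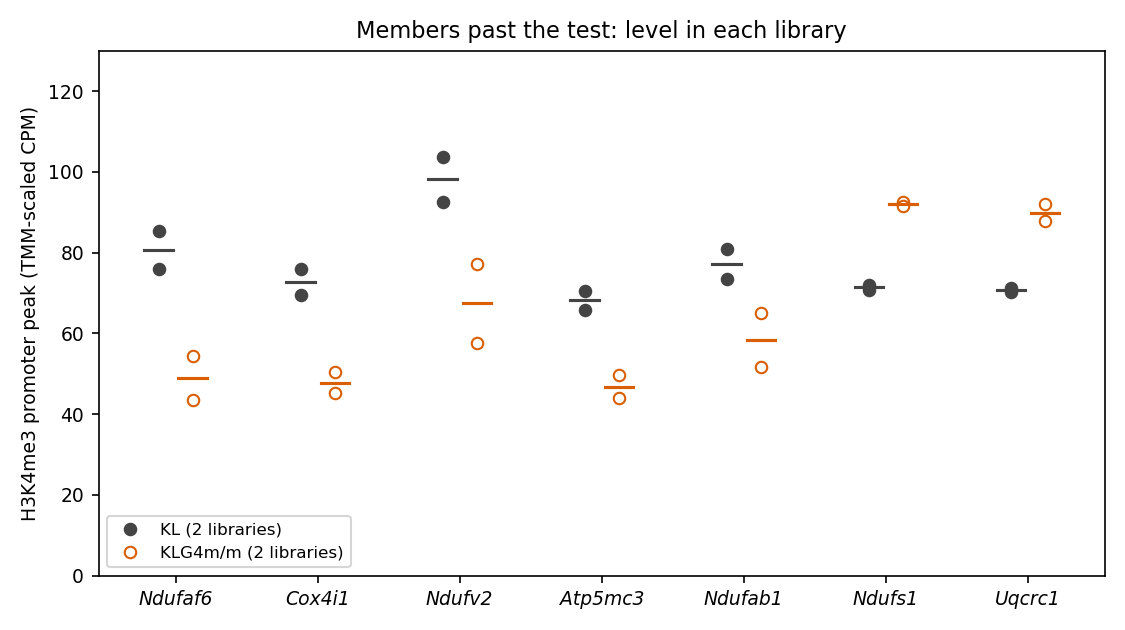
H3K4me3 level (TMM-scaled CPM) of the 7 member promoter peaks that passed the test, 1 point per library, with a short line at each group's mean. In all 7 the 2 KL points and the 2 KLG4m/m points do not overlap. These peaks were picked by the test on the same libraries, so the lack of overlap, here and in the text, adds no support. Of all promoter peaks 27.9% had both KLG4m/m libraries above both KL libraries and 29.1% below. The KLG4m/m points of Ndufv2, Ndufab1 and Ndufaf6 lie further apart than those of Ndufs1.

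With the reads of all peaks of a gene summed, the same 5 genes were lower and 5 were higher of 79 (6.33% each, against a background of 9.63% lower and 5.38% higher over all 20871 genes). Ndufs1 and Uqcrc1 were joined among the higher genes by Cox8a (0.28, adjusted p = 0.0190), Atp5f1b (0.23, adjusted p = 0.0358) and Atp5pb (0.24, adjusted p = 0.0325). Atp5f1b and Atp5pb had 1 peak each, so their calls differ from those of the peak test through the other set of features fitted and not through other reads. DESeq2 on the gene sums called 3 lower and 0 higher, against 1.61% and 0.57% of all genes.

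Most members differed by little between the groups. The 73 promoter peaks had a median log2 fold change of 0.073, with quartiles of -0.011 and 0.13. Of the 73, 51 were above 0 (69.9%, against 50.4% of all promoter peaks). All promoter peaks had a median of 0.0024 and quartiles of -0.23 and 0.15. By complex the median was 0.070 in I, 0.064 in II, 0.13 in III, 0.051 in IV and 0.082 in V. Both KLG4m/m libraries were above both KL libraries at 30 of 73 member promoters (41.1%, background 27.9%) and below them at 8 (11.0%, background 29.1%). By level, among promoter peaks of 50 to 100 CPM, where 52 members lay, the median over all 6136 peaks was 0.043 and that of the members 0.069. In the same range 5.95% of all peaks were lower and 2.51% higher, compared to 5 and 2 of the 52 members. Above 100 CPM the medians were 0.091 for 1033 peaks and 0.082 for 14 members; 0.484% of all peaks there were lower and 4.36% higher, and no member passed. From 20 to 50 CPM the medians were -0.067 for 4690 peaks and 0.087 for 7 members; 13.7% of all peaks there were lower and 3.11% higher, and no member passed.

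**Figure D3:**
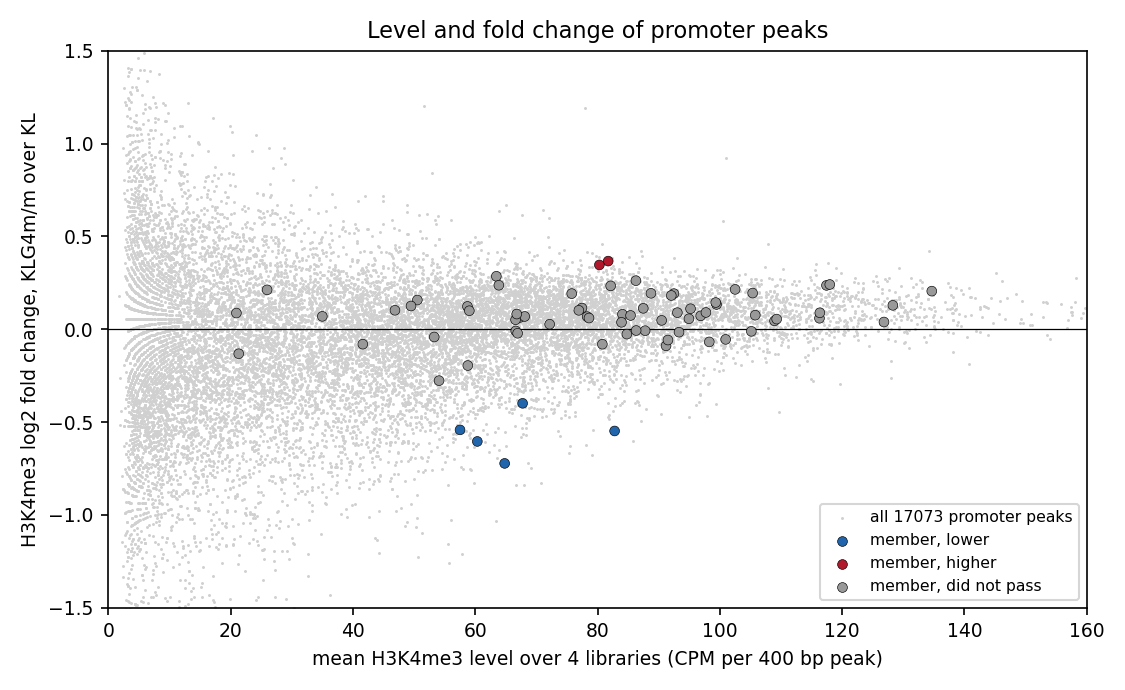
Mean H3K4me3 level (CPM per 400 bp peak, horizontal) and log2 fold change (KLG4m/m over KL, vertical) of all 17073 promoter peaks in grey, of which 170 lie outside the axes, and of the 73 members in dark grey, blue (lower) and red (higher). The members lie from 20.9 to 135 CPM, with 52 of the 73 between 50 and 100 CPM, and the 5 lower members lie between 57.5 and 82.8 CPM.

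Isoform genes that are known from muscle, testis or hypoxic cells had less H3K4me3 at their start than the ubiquitous forms. Cox6b2 held 20.9 CPM compared to 53.3 CPM at Cox6b1, Cox7a1, the heart and muscle form, 41.6 CPM compared to 76.9 CPM at Cox7a2, and Ndufa4l2 21.3 CPM compared to 93.3 CPM at Ndufa4, which is now counted with complex IV. In each of these 3 pairs the 4 libraries of one form did not overlap the 4 of the other. Ndufa4l2 also had a stronger peak of 35.4 CPM, at -2020 bp from the start of another of its transcripts. None of the 6 promoters passed between the genotypes. The largest absolute log2 fold change among them was -0.13 ± 0.18 at Ndufa4l2 (adjusted p = 0.690), where KL held 71 and 84 reads and KLG4m/m 75 and 61. Cox4i2, Cox6a2 and Cox8b, the tissue forms paired with Cox4i1, Cox6a1 and Cox8a, had no peak under their own name in the table.

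**Figure D4:**
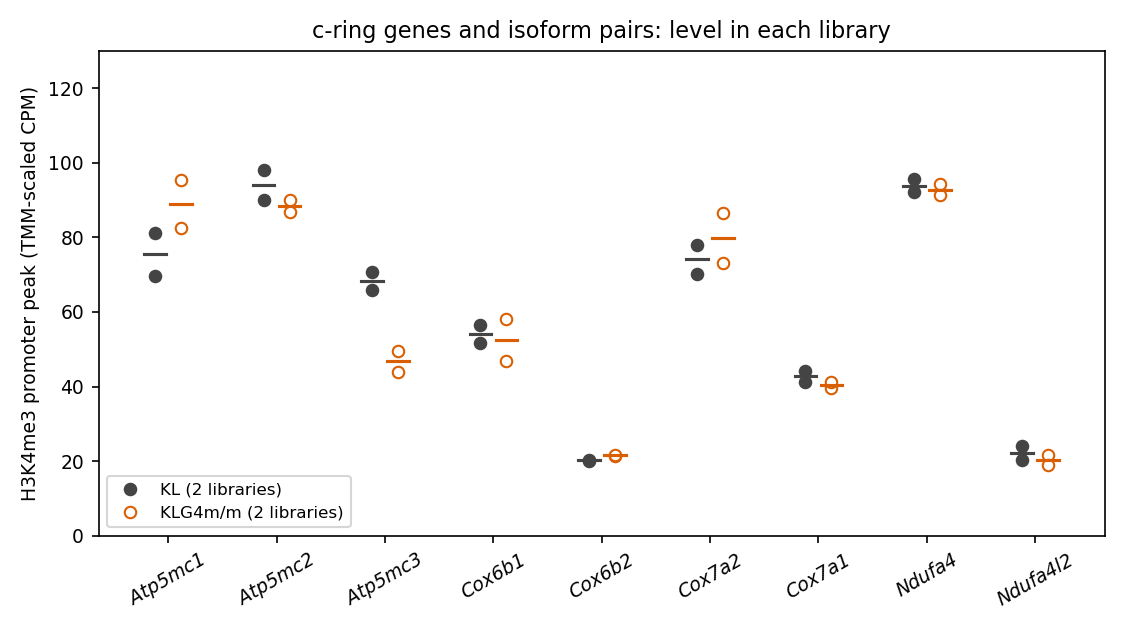
H3K4me3 level (TMM-scaled CPM) of the promoter peaks of the 3 c-ring genes and of 3 isoform pairs, 1 point per library, with a short line at each group's mean. Of these 9 promoters the groups are well apart at Atp5mc3, and the tissue forms Cox6b2, Cox7a1 and Ndufa4l2 lie below their ubiquitous partners in all 4 libraries.

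None of the 26 member peaks away from a start site passed (edgeR; 2 at an unadjusted p under 0.05, of all such peaks 21.5%; DESeq2 called 0), against 2.82% lower and 3.29% higher of the 18413 such peaks. The lowest p among them were those of a peak 4956 bp from Atp5pb-ps (23 and 37 reads in KL, 43 and 47 in KLG4m/m, log2 fold change 0.64, adjusted p = 0.111), a peak at -14104 bp from Cox6c2 (16 and 13 against 8 and 6 reads, -0.98, adjusted p = 0.190) and a peak at -8924 bp from Cox8a (26 and 19 against 32 and 32 reads, 0.56, adjusted p = 0.212). These 3 peaks held 6 to 47 reads per library. Among the weak peaks of at least 10 CPM, that of Cox7a2l at -13047 bp was at -0.46 (adjusted p = 0.248), that of Ndufa11b at 7928 bp at 0.32 (adjusted p = 0.390) and that of Sdhd at 12573 bp at 0.25 (adjusted p = 0.571).

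The table names each peak by 1 gene, so some subunits are missing from it by name. No listed peak carried the name of 12 subunit genes of the rule (Ndufs3, Ndufa2, Ndufa8, Ndufa11, Ndufb1, Ndufb3, Ndufb5, Sdha, Uqcrb, Uqcrh, Uqcrq and Atp5f1a). In the RefSeq annotation 8 of them start head to head with another gene within 1 kb whose promoter peak is listed, such as Kbtbd4 beside Ndufs3, Ccdc127 beside Sdha and Lrrc41 beside Uqcrh. These 8 shared start regions held 51.4 to 131 CPM, their log2 fold changes ran from -0.10 at Mrpl47, beside Ndufb5, to 0.27 at Cpsf2, beside Ndufb1, with adjusted p of 0.458 and 0.0706, and none passed. Of the 62 members with a promoter peak and a RefSeq start entry, 13 likewise had a head-to-head neighbor, so their peaks may carry the mark of both genes. One of these pairs is Atp5pf with Gabpa, which encodes the DNA-binding subunit of GABP.

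Motif matches and base composition were described for the 57 members with a promoter peak and 1 RefSeq promoter sequence, beside the 9201 listed genes with the same. The NRF1 core GCATGCGC was in 8 of 57 members, in 4.90% of the 9201, and in 2.71% of all 32851 promoters in the reference table. The ETS core CCGGAAG was in 28.1% of members, 15.6% and 8.86%, and the YY1 core AAGATGGCG in 12.3%, 2.61% and 1.40%. The GC box GGGCGG was in 45.6% of members, 61.5% of the 9201 and 35.7% of all, and the CCAAT box in 47.4%, 37.9% and 37.4%. Both strands were searched, and a match is a run of letters and not a bound site. The median GC content was 57.0% for members and 60.3% for the 9201. Among the 9201 it was 66.7% for the promoters that were lower and 57.5% for those that were higher. Of the 3 lower members with a sequence, Ndufv2 (70.7%) was the member with the highest GC content, and Atp5mc3 was at the members' median. Ndufaf6 and Cox4i1, which were lower, and Ndufs1, which was higher, matched no promoter sequence and are not in this description. The part of base composition in the members' calls was not tested.

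Other genes of the pathway were counted by gene sums, against 9.63% lower and 5.38% higher of all genes. Of 47 assembly factors and membrane helpers outside the rule, 43 had a peak, 0 were lower and 2 were higher (edgeR; 6 at an unadjusted p under 0.05, all higher, against 16.4% lower and 12.4% higher of all genes; DESeq2 called 0): Atpaf2, for the F1 part of ATP synthase (0.26, adjusted p = 0.0404), and Cox19, a copper-related factor of complex IV (0.31, adjusted p = 0.0405). Both have 1 peak, and in the edgeR peak test neither passed (adjusted p = 0.0819 and 0.0618). In that test 0 of the 41 promoter peaks of this list passed, against 8.43% lower and 2.89% higher of all promoter peaks. Of 21 electron carriers and enzymes that feed the chain, 18 had a peak, and 2 were lower and 0 higher (4 lower and 4 higher at an unadjusted p under 0.05; DESeq2 called 0): Coq10a, a ubiquinone-binding protein (-0.33, adjusted p = 0.0382), and Coq8b, a kinase-like protein of ubiquinone synthesis (-0.19, adjusted p = 0.0456). The edgeR peak test named other genes: 2 of 20 promoter peaks of this list were lower (10.0%) and 0 higher. They were those of Coq2 (-0.47, adjusted p = 0.0188) and 1 of the 2 of Coq8b (-0.31, adjusted p = 0.0392). The other peak of Coq8b was at -0.036 (adjusted p = 0.872), and the 1 peak of Coq10a did not pass (adjusted p = 0.0678). Cyc1, the cytochrome c1 subunit of complex III, whose symbol lies outside the rule, was at -0.23 (adjusted p = 0.111). Of 17 regulators, 12 had a peak, 2 were lower and 1 was higher (16.7% and 8.33%), and DESeq2 called 1 lower (Yy1) and 0 higher. Yy1 held 374 and 378 reads in KL and 274 and 218 in KLG4m/m (-0.56 ± 0.093, adjusted p = 2.11e-06). Pprc1, a relative of the PGC-1 coactivators, was lower (-0.29, adjusted p = 0.0192), and Sp1 was higher (0.26, adjusted p = 0.00822). Nrf1 was at -0.33 by gene sum and did not pass (adjusted p = 0.0846). In the edgeR peak test a weak peak at -20919 bp from Nrf1 was lower (-1.37, adjusted p = 0.0305). That peak held 26 and 20 reads in KL and 11 and 6 reads in KLG4m/m.

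Genes of other large complexes were counted by promoter peaks, of which 8.43% of all were lower, 2.89% higher and 28% at an unadjusted p under 0.05. Of 62 peaks of mitochondrial ribosomal protein genes, 0 passed (edgeR; 4 at an unadjusted p under 0.05; DESeq2 called 0), with a median log2 fold change of 0.072. For the proteasome 0 of 35 passed (8 at an unadjusted p under 0.05; DESeq2 called 0), with a median of 0.078, and for the cytosolic ribosome 4 of 73 were lower and 1 was higher, with a median of 0.036. These counts are a description, and no difference between the gene groups was tested.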

How the data were processed

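H3K4me3 was profiled with a CUT&Tag kit, in which the labels describe cleavage by pAG-MNase, in FACS-sorted tumor cells (1000000 per mouse). The 4 H3K27ac samples were not analysed here. Per the submitters' processing notes, the tools were Trim Galore 0.6.10, BWA 0.7.15, Picard 2.17.3, MACS2 2.2.7.1 and HOMER 4.11.1. The authors removed mitochondrial, poorly mapped and duplicate reads. The authors deposited 1 table that holds, for each peak and library, counts (whole reads, not normalized) and CPM (per library total over all listed peaks), the distance to a start site (bp), and columns of their own comparison (fold changes and p-values), which were not used. The build of the positions is not settled: the methods name an Ensembl release, whereas contig names are those of GRCm39.

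Counts were tested with edgeR 4.0.16 (quasi-likelihood, TMM, no filter on low counts, no covariate) in R 4.3.3 for KLG4m/m over KL, over all 35486 peaks and, with reads summed by gene, all 20871 genes. The threshold was an adjusted p of 0.05 (Benjamini-Hochberg). SEs were the absolute log2 fold change over the square root of F. A shift by 1 common factor at every peak is removed by this scaling. Intervals and SEs rest on reads with duplicates removed and no molecular identifiers. With 2 libraries against 2, an exact permutation test has 3 distinct splits and cannot pass the threshold, so none was used. The procedure was tested on simulated counts with 2-fold changes and 1 common dispersion. That run does not show how the test behaves at the smaller differences of the members or where the spread varies between peaks. Alternatives were DESeq2 1.42.0, limma 3.58.1 on log2(CPM + 1), other scalings, a minimum of 10 CPM, a 2.5 kb window, the peak nearest the start and leaving out each library.

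The members and lists were chosen with earlier results of these data known. The text names members that passed, the 3 highest and the lowest promoter level of each complex, the 2 largest and 2 smallest fold changes of each complex at 10 CPM or more, the 3 lowest p away from promoters, isoform pairs, list genes that passed, Gpx4 and Stk11; the other values named (such as those of Cox5a, Cyc1, Nrf1 and the markers) were chosen after their values were seen, for their role. Sequences and neighbors came from RefSeq tables of GRCm38.p6, in which 57 of 73 members matched 1 promoter. Some items are not reported here.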

Additional observations from a re-analysis of the deposited data

How the results depend on the processing

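Total reads without TMM, centring on the median promoter, limma on log2(CPM + 1) and a minimum of 10 CPM each gave 5 lower and 2 higher member peaks and 5 lower and 5 higher genes. DESeq2 called 1 peak lower and 0 higher, and 3 genes lower and 0 higher; its adjusted p was 0.0113 for Ndufaf6, 0.0571 for Cox4i1, 0.0746 for Ndufv2, 0.132 for Atp5mc3, 0.337 for Ndufs1, 0.381 for Ndufab1 and 0.403 for Uqcrc1. The cause was not tested. Upper-quartile scaling called 8 peaks higher, Cox8a, Atp5f1b, Atp5pb and Atp5pf among them, moved the median member promoter from 0.073 to 0.13 (0.053 to 0.077 under the other settings with all 4 libraries, 0.053 to 0.091 without 1 library), and turned the sign of Ndufa4 (0.045), Uqcr11 (0.0060), Cox6a1 (0.034), Cox6b1 (0.020) and Cox7a2l (0.054), none of which passed. With all 4 libraries Atpaf2, Cox19, Coq10a, Coq8b, Pprc1 and Sp1 each missed the threshold under DESeq2 or another alternative, and Yy1 passed under each.

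Leaving out 1 library leaves 1 library in a group, which was then assumed to vary like the other group. The calls of the members did not hold in every such fit. The share of all peaks passing in these fits was not counted, so lost calls at members cannot be set against those at all peaks. The cause was not tested. The log2 fold change of Ndufaf6 ran from -0.89 to -0.57 and that of Ndufab1 from -0.58 to -0.25. It ran from -0.76 to -0.35 at Ndufv2, from -0.69 to -0.53 at Cox4i1 and from -0.64 to -0.46 at Atp5mc3. For the higher members it ran from 0.36 to 0.38 at Ndufs1 and from 0.32 to 0.38 at Uqcrc1. Signs turned at members near 0 that did not pass: the ranges were -0.043 to 0.012 for Ndufa4, -0.058 to 0.14 for Ndufv3, -0.0059 to 0.14 for Sdhb, -0.12 to 0.0070 for Uqcr11, -0.16 to 0.086 for Cox6a1, -0.20 to 0.11 for Cox6b1, -0.018 to 0.22 for Cox7a2 and -0.087 to 0.070 for Cox7a2l. No paired analysis was possible because the KL and KLG4m/m libraries share no replicate number.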
